A study of Mus musculus with 8 samples.

Results

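The 48 genes described here encode proteins of the cytosolic ribosome, the particle that translates messenger RNA in the cytoplasm. They were the genes whose symbol in the array's annotation is Rpl or Rps followed by a number, with Rplp0, Rplp2 and Rpsa. Kinases of the Rps6k family, Rps19bp1 and pseudogenes were left out. Only probe sets that name a single gene were used, and where a gene had several, the brightest stood for it. Whether such a probe set also binds transcripts of related genes or pseudogenes could not be checked without probe sequences. The 48 genes were found among 18193 genes measured in this way, and 104 probe sets name them alone. They comprised 26 proteins of the large subunit and 22 of the small subunit. The annotation names 79 ribosomal protein genes that are not pseudogenes, and 31 of them, among them Rpl3, Rpl5, Rpl9, Rpl15, Rps12 and Rps23, were named only by probe sets that also name other genes. No level is given for those 31 genes.

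C57/B6 mouse fetal livers were the source of the RNA, from haematopoietic stem cells sorted as Lin-Sca+Kit+, with 1 mouse behind each of the 8 arrays. The wild-type group had 2 arrays, the ADAR1 +/- (heterozygous) group 3 and the ADAR1 -/- (null) group 3. Embryo age, the allele and any shared litters are not stated in the labels. The comparisons ask how loss of ADAR1, an enzyme that converts adenosine to inosine in RNA duplexes, goes with transcript levels in these cells. Values are log2 of the deposited intensity, a measure of probe set brightness, and the small number of arrays limits their precision.

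A cytosolic ribosome is built from ribosomal RNA and one copy or a few copies of each ribosomal protein. The large subunit joins amino acids and the small subunit reads the messenger RNA. Cells hold the proteins in balanced amounts, and most ribosomal protein transcripts begin with a tract of C and T bases (U in the RNA) through which growth signals set their translation. Loss of 1 copy of several of these genes causes Diamond-Blackfan anaemia, a failure of red cell production, so that blood-forming cells are among the tissues in which their dosage is best known. Proteins that are left without a ribosome, Rpl5 and Rpl11 first among them, bind Mdm2 and stabilise p53.

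Adar itself, the targeted gene, was read by 3 probe sets, and the labels do not say where these lie relative to the deleted part, so they do not check the genotype. The brightest read 2.94 to 4.14 in controls, that is, wild type with heterozygous, while the arrays labelled null read 5.90, 7.17 and 7.46, against the direction of the label (3.22 ± 0.41 SE, limma adjusted p = 0.017). The other 2 probe sets differed by 0.24 ± 0.40 and -0.16 ± 0.20, and were above background on only 5 and 1 of the 8 arrays. Throughout, null array means an array labelled null, and every direction drawn from it rests on that label. Of 8 stem and progenitor markers measured, 5 to 7 were above background on each array, and Kit was dim (9.33 to 23.5 in linear intensity) while Procr was above background on 0 of 8 arrays. The summed linear level of 15 type I interferon-induced genes lay between 118 and 138 in controls and between 7667 and 17870 in null. Markers of other cells were also compared. Those of hepatocytes and hepatoblasts (10 genes) summed to 219 to 1131 in controls and 80.7 to 110 in null, macrophage markers (9 genes, Adgre1 above background on 0 arrays) to 153 to 672 and 59.9 to 68.9, and erythroid markers (8 genes) to 1042 to 1772 and 702 to 1266. Against all controls, 9 hepatocyte and hepatoblast genes were lower by value and 1 higher, and 7 macrophage genes were lower and 2 higher. In each of these lists only 1 gene was above background on all arrays. Afp alone gave 617 of the 1131 on heterozygous 1. The erythroid sums overlap, and against all controls 3 of the 8 genes were higher and 5 lower by value, with Gata1 apart on the higher side (0.80) and Ermap on the lower (-2.70). Endothelial and stromal markers (7 genes, Col3a1 above background on 0 arrays) summed to 203 to 381 in controls and 380 to 540 in null, and all 7 were higher by value, with 0 past the threshold (Kdr 0.86, limma adjusted p = 0.171). All 6 megakaryocyte markers were above background on every array, and against all controls 5 were higher and 1 lower by value. Granulocyte (9 genes), lymphoid (7) and mast cell (6) markers had 2, 0 and 0 genes above background on all arrays. In these lists 0 genes passed the threshold against all controls. The part of all these markers in the ribosomal protein values below was not tested. In bulk RNA, fewer cells of a type and less RNA per cell cannot be told apart.

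The sequence around the start of transcription is the feature that ribosomal protein genes are best known to share, and it is shown for genes whose values the comparisons below turn on and for 3 bright genes whose null arrays were not all low. Each line gives 30 bases before and 20 bases after the start in RefSeq's annotation of GRCm38.p6, read along the gene, with the longest run of C and T in capitals (the first of an equal pair in Rps27l).
Rpl14 (chr9:120571487-120571536, plus strand): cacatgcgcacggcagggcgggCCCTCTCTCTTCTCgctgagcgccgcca
Rpl37a (chr1:72711230-72711279, plus strand): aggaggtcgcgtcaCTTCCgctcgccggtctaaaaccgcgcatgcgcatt
Rpl22l1 (chr3:28805478-28805527, plus strand): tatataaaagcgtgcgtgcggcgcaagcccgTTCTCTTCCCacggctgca
Rps24 (chr14:24490648-24490697, plus strand): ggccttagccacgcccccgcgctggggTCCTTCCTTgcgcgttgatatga
Rps19 (chr7:24884562-24884611, plus strand): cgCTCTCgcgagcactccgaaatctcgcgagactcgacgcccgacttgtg
Rps27l (chr9:66946056-66946105, plus strand): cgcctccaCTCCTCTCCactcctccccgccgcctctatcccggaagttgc
Rps10 (chr17:27635225-27635274, minus strand): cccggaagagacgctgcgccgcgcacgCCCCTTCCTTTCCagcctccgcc
Rplp2 (chr7:141447621-141447670, plus strand): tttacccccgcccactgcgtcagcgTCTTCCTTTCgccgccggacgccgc
Rpl38 (chr11:114668550-114668599, plus strand): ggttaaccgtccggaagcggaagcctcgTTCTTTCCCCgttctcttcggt

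The run of C and T lies across the start in Rpl14, Rps24, Rps10, Rplp2 and Rpl38, and just after it in Rpl22l1. In the windows of Rpl37a, Rps19 and Rps27l the longest runs end before the listed start. RefSeq lists 3 starts for Rps19 and 2 each for Rps24 and Rps27l, of which the first is shown. A promoter entry was matched for 43 of the 48 genes (not for Rpl7, Rpl8, Rps14, Rps20 and Rps29). A run of at least 10 C or T bases on the gene's strand within 50 bases of the start was found in 65.1% of these 43 genes and in 19.9% of the 14452 measured genes with an entry, and a run of at least 8 in 83.7% and 37.6%. In the same window, on either strand, CTTTC was found in 60.5% and 23.2%, CTTCC in 65.1% and 43.6%, and CTTTT in 34.9% and 19.2%. The word CCGGAAG, which holds the core that ETS factors bind, was found on either strand of the 300 bases of 48.8% of the ribosomal protein promoters and 15.0% of all. AAGATGG, the core of the YY1 site, was found in 18.6% and 7.54%, and TATAAA in the 50 bases before the start in 2.33% and 3.99%. The words were chosen after some of the windows had been seen, CTTCC and CCGGAAG can overlap such runs, and a match is a description of letters only.

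Ribosomal protein transcripts were among the brightest on every array, whatever the genotype. The median log2 intensity of the 48 genes was 11.23 and 11.18 in wild type, 11.37, 11.36 and 11.44 in heterozygous, then 11.11, 11.26 and 11.33 in null. The null medians lay on both sides of wild type and below heterozygous. The median member stood at the 99.29th to 99.46th percentile of the 18193 genes of its array, 30 to 32 of the 48 genes were in the top 1% and 36 to 38 in the top 5%. Their share of the summed linear intensity of all genes was 7.17% and 7.31% for wild type, 7.21%, 7.46% and 7.31% for heterozygous, then 8.81%, 7.16% and 7.70% for null. Null 1 and null 3 were above the control range and null 2 just below it.

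Brightness depends on the probes as well as on the transcript, so the order of genes is that of probe sets and not of transcript amounts. The 3 brightest were Rpl13a, whose protein also takes part in interferon-gamma-dependent silencing of translation (13.66 to 14.06), Rpsa, the laminin receptor protein of the small subunit (13.31 to 13.57), and Rpl35 (12.62 to 13.68). The probe set of Rpl13a was the brightest of all genes on 7 of the 8 arrays. The 3 dimmest were Rps16 (2.01 to 2.43), Rpl37 (2.31 to 2.92) and the muscle form Rpl3l (2.26 to 3.11). In all, 41 of the 48 genes were above background on all 8 arrays, background being the highest of 27 bacterial control probe sets on an array (2.63 to 3.22). Rps16 was above it on 0 arrays, Rpl37 on 1, Rpl3l on 2, Rps27, Rpl39 and Rpl39l on 4 each and Rps25 on 6. For Rps16, Rpl37, Rps27 and Rpl39 the probe sets that name other genes as well were not used, and a dim probe set says nothing about these proteins.

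**Figure D1:**
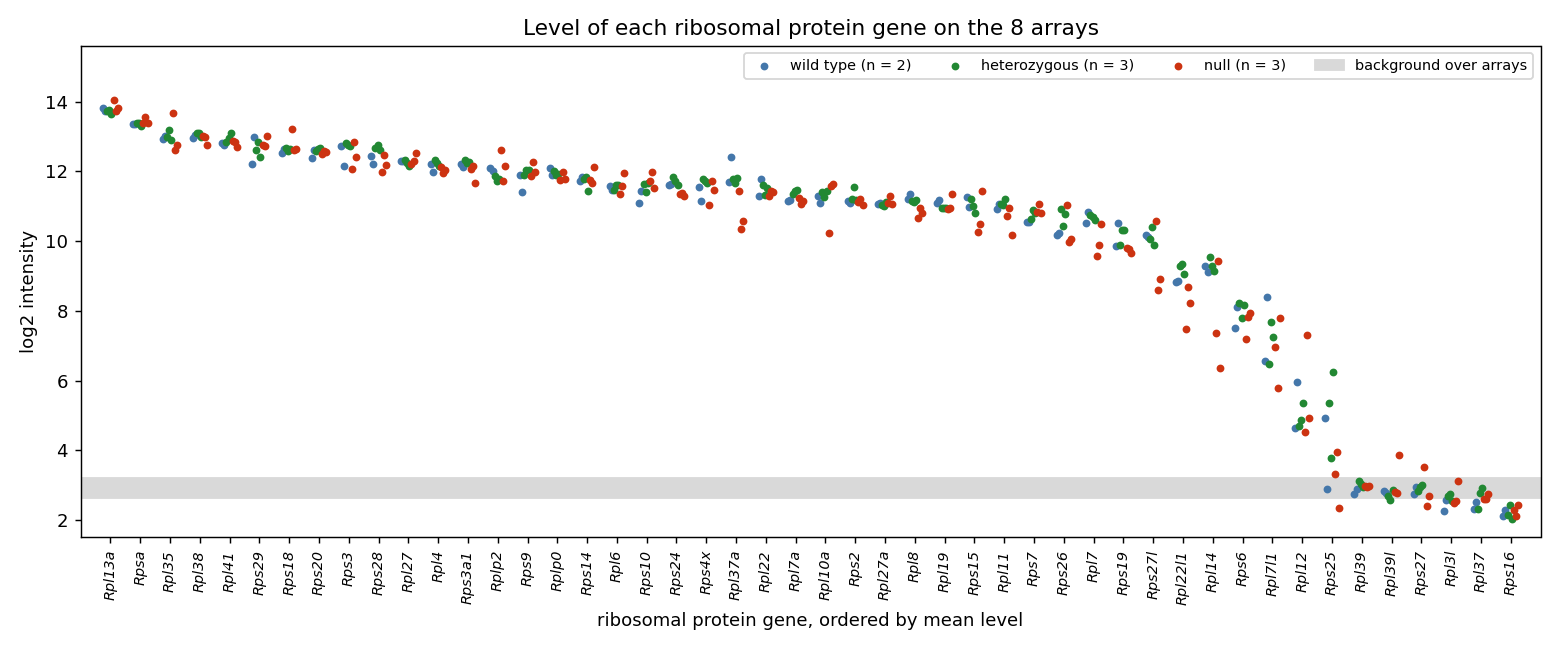
Log2 intensity of each of the 48 ribosomal protein genes (brightest probe set, horizontal axis, ordered by mean) on the 8 arrays, coloured by group, with the range of the background over arrays in grey. Genes from Rpl13a to Rpl12 lie above the band on all 8 arrays, and the genes from Rps25 rightwards reach it or lie in or below it.

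The null arrays varied more among themselves than the control arrays. The median SD within a group over the 41 genes above background was 0.095 log2 units for wild type, 0.082 for heterozygous mice and 0.24 for null. The same held for 122 other bright genes (0.12, 0.098 and 0.31) and for all 7058 genes above background on all arrays (0.39, 0.28 and 0.70). The 122 had mean levels at or above the lower quartile of the 41, so the dimmer members had no counterpart among them. Of the 41 genes, 15, 8 and 8 were over 0.5 log2 units away from the control mean on the 3 null arrays, against 1 and 3 on the wild-type and 1, 0 and 0 on the heterozygous arrays. The control arrays are part of the mean they are measured from, which makes their own deviations smaller. The share of probe sets above background ran from 40% to 46.4% over the null and from 45.6% to 61.2% over the control arrays, and its part in this spread was not tested.

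**Figure D2:**
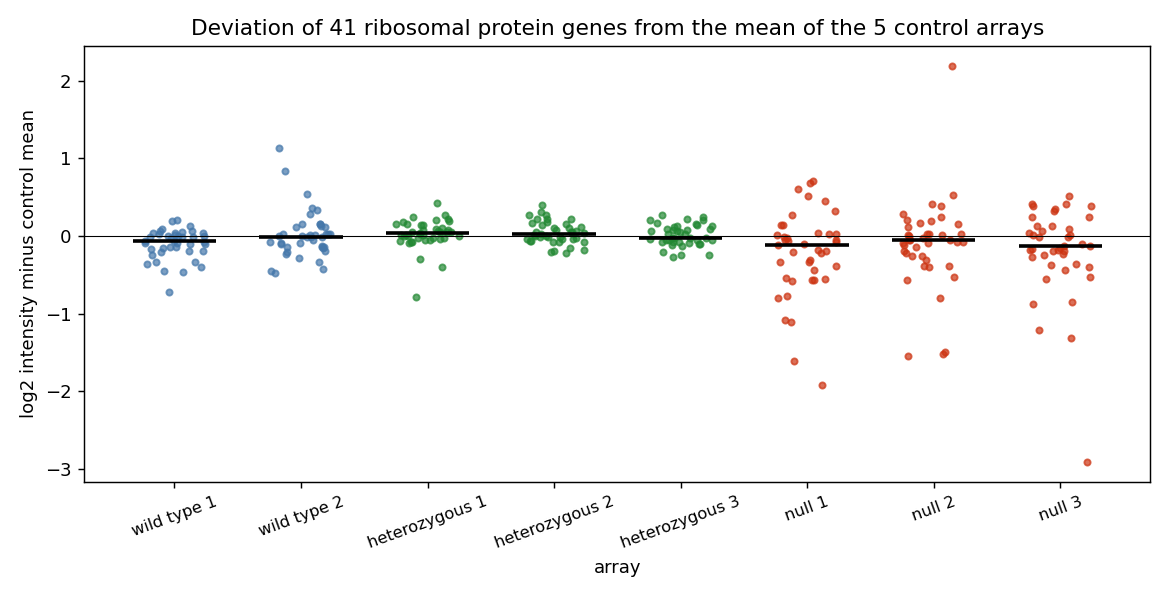
Log2 intensity minus the mean of the 5 control arrays for the 41 ribosomal protein genes above background, by array, with the median as a black line. Points spread most widely on the 3 null arrays, from Rpl14 at the bottom of null 3 to Rpl12 at the top of null 2, and the medians stay near 0.

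In null against wild type, 0 of the 48 ribosomal protein genes passed the threshold of limma's test (Benjamini-Hochberg adjusted p under 0.05 over 45037 probe sets), where 0.517% of all 18193 genes and 0.708% of the 7058 above background on all arrays did. The smallest adjusted p was 0.398, for Rpl37a. At an unadjusted p under 0.05, 2 genes were higher, Rps10 and Rps7, and 3 were lower, Rpl37a, Rpl7 and Rpl8, where 3.37% and 5.91% of all genes and 5.87% and 10.6% of those above background were. The groups did not overlap for 6 lower genes (12.5%) and 5 higher ones (10.4%), beside 10.8% and 9.49% of all genes. Among the 41 genes above background the counts were 6 (14.6%) and 3 (7.32%), beside 15.5% and 8.61% of the 7058. By value 22 of the 41 (53.7%) were lower, beside 59.1% of the 7058. The median difference was 0.01 log2 units over the 48 genes and -0.01 over the 41 above background, beside -0.15 over all 7058 genes above background. The median over the 48 genes became 0.18 after cyclic loess and 0.23 after scaling each array to its median over genes above background. Before, 23 of 48 genes were on the lower side (47.9%, beside 50% of all genes and 59.1% of those above background). After, there were 13 (27.1%) and 12 (25%). The scaling alone moved the median of all genes from -0.00 to 0.22. For 31 of the 41 genes above background (75.6%) the 95% interval of the difference lay within 1 log2 unit of 0, that is, within 2-fold either way. The share was 68% of the 122 other bright genes and 17.1% of all 7058.

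In null against heterozygous, 0 of 48 passed, where 0.77% of all genes and 1.2% of those above background did, and the smallest adjusted p was 0.268, for Rpl22l1. At an unadjusted p under 0.05, 0 genes were higher and 6 (12.5% of 48 and 14.6% of 41) lower, namely Rpl22l1, Rpl37a, Rpl7, Rpl8, Rps24 and Rps28. Of all genes 5.12% were higher and 7.88% lower, and of those above background 4.66% and 15.1%. The groups were apart for 11 genes, each with lower null arrays (22.9% of 48 beside 10.3% of all genes, and 26.8% of 41 beside 18.8% of those above background). For 0 genes were they apart with higher null arrays (beside 12.2% and 6.47%). To the 6 just named this adds Rpl4, Rpl7a, Rpl11, Rps3a1 and Rps19. The median difference was -0.12 over the 48 genes and -0.19 over the 41, beside -0.28 over all genes above background. The median over the 48 turned to 0.05 after cyclic loess and 0.28 after median scaling. On the lower side were 31 of 48 genes (64.6%, beside 43.7% of all genes) before, and 20 (41.7%) and 10 (20.8%) after. Of the 41, 27 (65.9%) were lower before, beside 65.2% of all genes above background. Median scaling moved the median of all genes from 0.06 to 0.46. The interval lay within 1 log2 unit of 0 for 30 of 41 genes (73.2%), beside 68.9% of the other bright genes and 19.1% of all genes above background.

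Both comparisons use the same null arrays, so their values for a gene are not independent. With the 5 controls as 1 group, 0 of 48 genes passed, where 0.934% of all genes and 1.69% of those above background did. The smallest adjusted p was 0.199, for Rpl37a. At an unadjusted p under 0.05, 0 genes were higher and 8 (16.7% of 48 and 19.5% of 41) lower. Of all genes 5.51% were higher and 7.98% lower, and of those above background 5.91% and 16%. The 8 were Rpl7, Rpl8, Rpl11, Rpl14, Rpl22l1, Rpl37a, Rps19 and Rps24. All 3 null arrays lay below all 5 controls for 6 genes (12.5% of 48 beside 4.95% of all genes, and 14.6% of 41 beside 9.41% of those above background). They lay above them for 0 genes (beside 4.19% and 3.57%). The median was -0.11 over the 48 genes and -0.13 over the 41, beside 0.03 over all genes and -0.23 over all genes above background. The first was 0.01 after quantile normalization, 0.09 after cyclic loess and 0.22 after median scaling. On the lower side were 28 of 48 genes (58.3%, beside 45.9% of all genes) before, and 23 (47.9%), 18 (37.5%) and 12 (25%) after. Of the 41, 26 (63.4%) were lower before, beside 63.4% of all genes above background. The interval lay within 1 log2 unit of 0 for 34 of 41 genes (82.9%), beside 77% of the other bright genes and 23.7% of all genes above background. The 7 exceptions were Rpl7, Rpl7l1, Rpl12, Rpl14, Rpl22l1, Rpl37a and Rps27l.

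**Figure D3:**
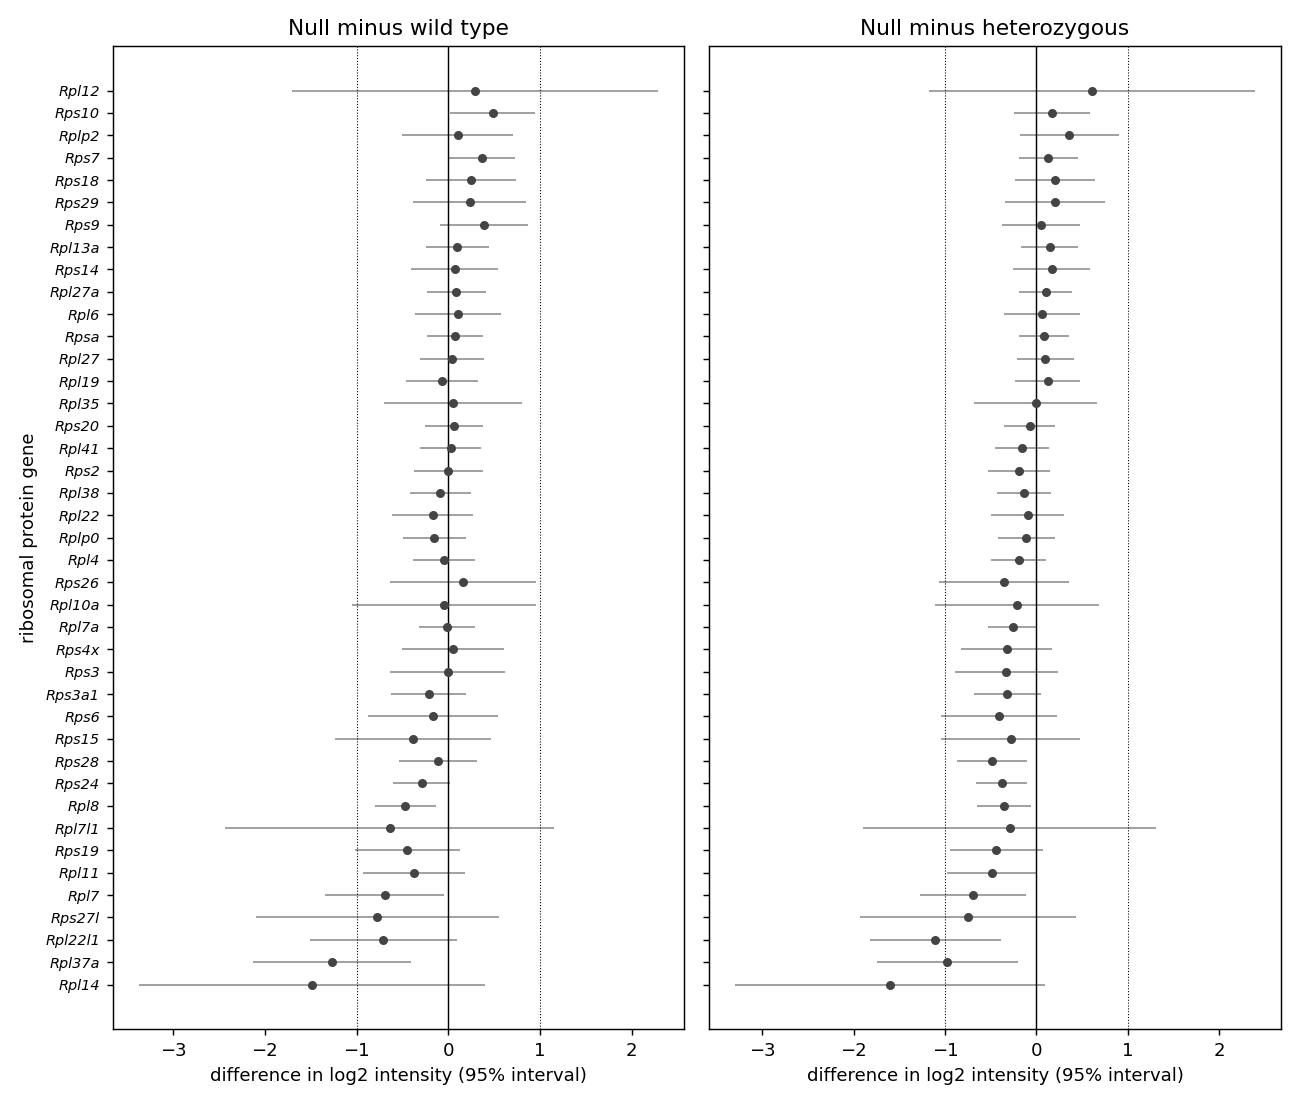
Difference in log2 intensity, null minus wild type (left) and null minus heterozygous (right), for the 41 ribosomal protein genes above background on all arrays, ordered by the difference from all controls, with limma's 95% intervals not adjusted for the number of genes. Dotted lines mark 1 log2 unit either side of 0, and the widest intervals belong to Rpl14, Rpl12, Rpl7l1 and Rps27l.

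Among large-subunit genes, Rpl37a, a zinc-binding protein, read 11.69 and 12.42 (wild type), 11.79, 11.67 and 11.82 (heterozygous), then 11.44, 10.34 and 10.57 (null). The null arrays all lay below the controls, null 1 by the least. The difference was -1.09 ± 0.28 SE against all controls (unadjusted p = 0.0051, limma adjusted p = 0.199), -1.27 ± 0.36 against wild type and -0.98 ± 0.32 against heterozygous. Its second bright probe set differed by -1.53 ± 0.35 and a dimmer one by -0.31 ± 0.21.

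Rpl22l1, a paralogue of Rpl22, read 8.83 and 8.84, then 9.30, 9.35 and 9.05, then 7.47, 8.69 and 8.23 in the same order of groups. The null arrays were again below all controls, and the heterozygous arrays were above wild type. The differences were -0.95 ± 0.28 SE from all controls (limma adjusted p = 0.26) and -1.11 ± 0.30 from heterozygous (0.268). Rpl7 read 10.53 and 10.83, then 10.76, 10.68 and 10.61, then 9.58, 9.89 and 10.50. The groups were apart, with null 3 just below wild-type 1, and the difference from all controls was -0.69 ± 0.20 (limma adjusted p = 0.26). Without null 3 it was -0.95 ± 0.15 and passed (adjusted p = 0.0451), and without null 1 it was -0.49 ± 0.19 (adjusted p = 0.446). The other 2 probe sets of Rpl7 differed by -0.55 ± 0.15 and -0.32 ± 0.15.

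Rpl8, a core protein near the site where amino acids are joined, read 11.20 and 11.34, then 11.16, 11.13 and 11.18, then 10.66, 10.95 and 10.81. All null arrays were below all controls, by a small step (-0.40 ± 0.11 SE, limma adjusted p = 0.239). Median scaling shifts all genes of a comparison by the same amount, and with that shift the difference was -0.07 from all controls and 0.044 from heterozygous. Rpl11, the p53-linked protein described above, read 10.93 and 11.07, then 11.08, 11.05 and 11.20, then 10.73, 10.95 and 10.19. The null 2 array lay among the controls, and the difference was -0.44 ± 0.18 (limma adjusted p = 0.412).

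Rpl14 had the widest gaps between null arrays. It read 9.28 and 9.13, then 9.54, 9.27 and 9.15, then 7.35, 9.44 and 6.37. Null 1 and null 3 were far below the controls while null 2 was among them, so the groups overlapped. The difference from all controls was -1.56 ± 0.59 SE (limma adjusted p = 0.39), with an interval from -2.93 to -0.18. Without null 2 it was -2.41 ± 0.27 and passed (adjusted p = 0.0127), as it did against heterozygous (-2.46 ± 0.31, 0.0356). Without null 3 it was -0.88 ± 0.50 from all controls (adjusted p = 0.571) and -0.93 ± 0.58 from heterozygous (0.584). Only 1 of the 6 probe sets that name Rpl14 names it alone.

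Among small-subunit genes, Rps24 read 11.62 and 11.64, then 11.84, 11.72 and 11.60, then 11.34, 11.37 and 11.30. All null arrays were below all controls, and the same was true of each of its 4 probe sets above background. The difference was -0.34 ± 0.10 SE from all controls (unadjusted p = 0.0104, limma adjusted p = 0.266), and -0.41 ± 0.11, -0.38 ± 0.12 and -0.57 ± 0.16 in the other 3 probe sets. Median scaling, which shifts all genes of a comparison alike, left it at -0.015 from all controls and 0.020 from heterozygous. Rps19, the gene most often mutated in Diamond-Blackfan anaemia, read 9.85 and 10.52, then 9.89, 10.32 and 10.32, then 9.79, 9.78 and 9.65. The null arrays were lowest, with wild-type 1 and heterozygous 1 close above them. The difference was -0.44 ± 0.18 (limma adjusted p = 0.419).

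Rps27l, a paralogue of Rps27 that p53 is known to activate, read 10.16 and 10.12, then 10.07, 10.41 and 9.88, then 10.58, 8.61 and 8.92. Null 1 was the highest of all arrays and the other null arrays were the lowest. The difference from all controls was -0.76 ± 0.41 SE (limma adjusted p = 0.524). Without null 1 it was -1.36 ± 0.17 and passed (adjusted p = 0.0272), and without null 2 it was -0.38 ± 0.41 (adjusted p = 0.678). Its other 2 probe sets had all null arrays below all controls (-0.87 ± 0.20 and -1.01 ± 0.18, limma adjusted p = 0.158 and 0.0662).

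Rps10 and Rps7 stood on the higher side. Rps10 read 11.08 and 11.43, then 11.64, 11.40 and 11.67, then 11.72, 11.97 and 11.54. The null arrays were above wild type but not above heterozygous (0.48 ± 0.19 SE and 0.17 ± 0.17, limma adjusted p = 0.626 and 0.677). Rps7 read 10.54 and 10.55, then 10.64, 10.90 and 10.81, then 10.84, 11.08 and 10.82, in the same pattern (0.37 ± 0.15 from wild type, 0.649). The sign of Rps10 depended on the probe set, which is taken up below. Rps9 differed from wild type by 0.39 ± 0.20 (0.734), with wild-type 2 low at 11.41. Its other probe set above background gave -0.45, with all null arrays below wild type.

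Rps28 read 12.44 and 12.20, then 12.68, 12.76 and 12.62, then 11.98, 12.46 and 12.18, so that null was apart from heterozygous and not from wild type (-0.48 ± 0.16 SE and -0.11 ± 0.18, limma adjusted p = 0.36 and 0.912). Rps25 read 4.92 and 2.89, then 5.36, 3.77 and 6.23, then 3.32, 3.95 and 2.33. Its values crossed the background and its differences (-1.92 ± 0.81 from heterozygous, limma adjusted p = 0.442) had the widest intervals of all members in that comparison. Rpl12, a protein at the base of the stalk, was high on 1 null array (7.30, beside 4.52 and 4.93), and its difference from all controls of 0.48 ± 0.63 became -0.38 without null 2. Rplp2, an acidic protein of the stalk, read 12.09 and 12.02, then 11.88, 11.72 and 11.79, then 12.61, 11.71 and 12.15, and its difference from heterozygous was 0.36 ± 0.23 (limma adjusted p = 0.55). Rpl38, one of the bright genes, differed by -0.11 ± 0.11 from all controls. Rps18 and Rps29 had the next highest differences from heterozygous (0.20 ± 0.18 and 0.20 ± 0.23). There the 4 probe sets of Rps18 above background ran from -1.03 to 0.20, and the 3 of Rps29 from 0.20 to 0.26. For Rps18, 1 array, null 1 at 13.21, stood above the other 7 (12.52 to 12.67).

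**Figure D4:**
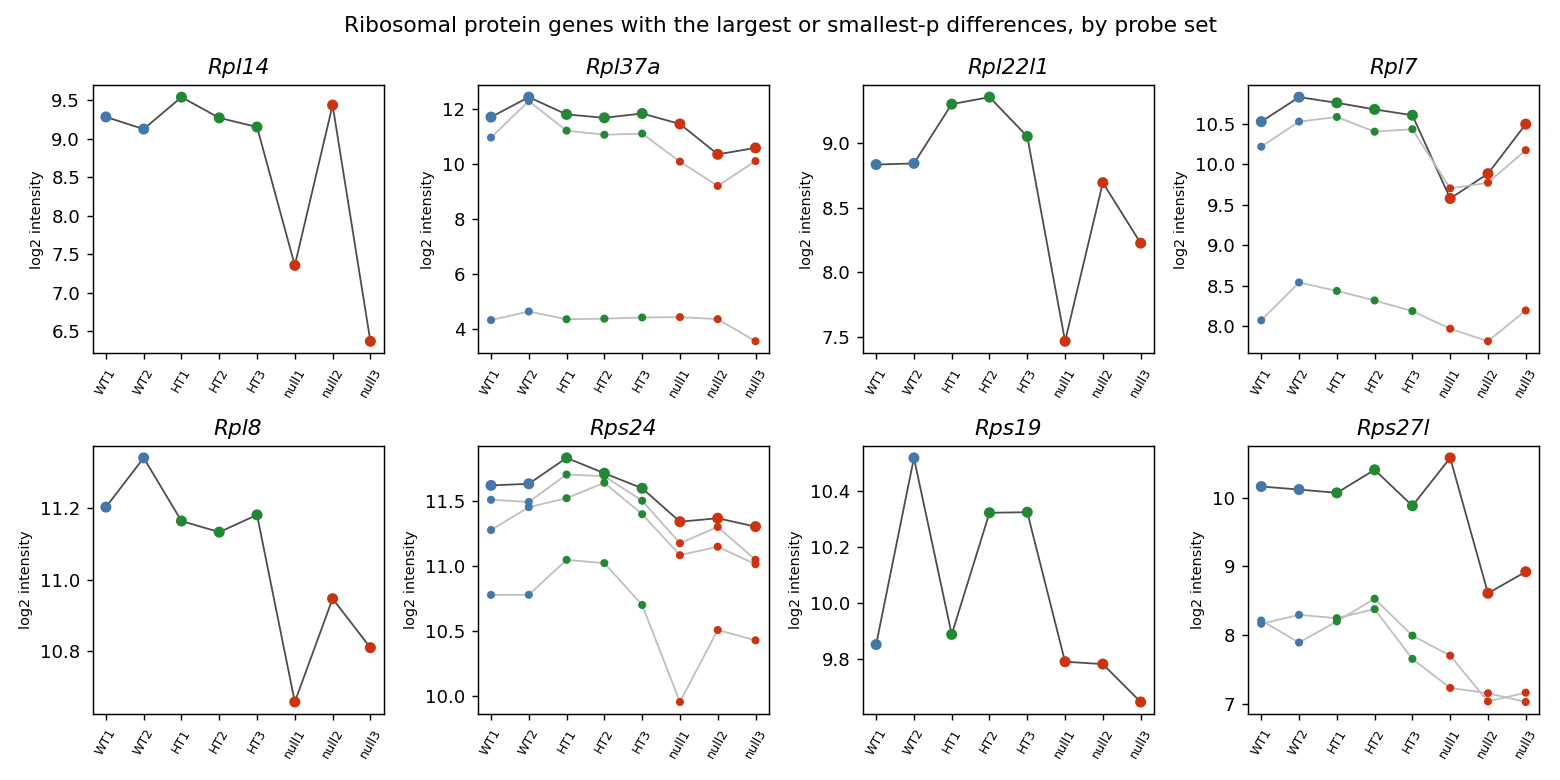
Log2 intensity on each array for 8 ribosomal protein genes, with 1 line for each probe set above background on all arrays and the brightest in dark grey with large points. Lines only join the values of a probe set. In the brightest probe set, null arrays (red) lie below all controls in Rpl37a, Rpl22l1, Rpl7, Rpl8, Rps24 and Rps19, and 1 null array lies among or above them in Rpl14 and Rps27l. In 1 dimmer probe set each of Rpl37a and Rpl7 the groups overlap.

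In heterozygous against wild type, 0 of 48 genes passed, where 0% of all genes did, and at an unadjusted p under 0.05 the count was also 0, beside 3% of all genes higher and 2.9% lower, and 5.31% and 2.48% of those above background. Over all probe sets 1 passed. The 3 groups share 1 estimate of spread in this fit, so its errors and intervals also carry the wider spread of the null arrays. The largest difference among genes above background was that of Rps26 (0.51 ± 0.34 SE, limma adjusted p = 0.898), which read 10.18 and 10.23 in wild type and 10.93, 10.44 and 10.78 in heterozygous. Rpl22l1 (0.40 ± 0.34), Rps4x (0.38 ± 0.23) and Rps28 (0.37 ± 0.18) were next, and on the lower side Rpl7l1 (-0.34 ± 0.75), Rpl12 (-0.31 ± 0.84), Rpl37a (-0.30 ± 0.36) and Rplp2 (-0.26 ± 0.25). Rps25, which was above background on 6 arrays, differed by 1.22 ± 0.90. The heterozygous arrays lay above both wild-type arrays for 11 genes (22.9%, beside 12.4% of all genes) and below them for 3, Rpl8, Rpl19 and Rplp2 (6.25%, beside 17.5%). Among the 41 the counts were 10 (24.4%) and 3 (7.32%), beside 19.1% and 10.4% of all genes above background. The median was 0.07 over the 48 genes and 0.05 over the 41, beside -0.05 over all genes and 0.11 over all genes above background. The first turned to -0.11 after median scaling. On the lower side were 17 of 48 genes (35.4%, beside 56.5% of all genes) before and 32 (66.7%) after. Of the 41, 16 (39%) were lower before, beside 42% of all genes above background. The interval lay within 1 log2 unit of 0 for 33 of 41 genes (80.5%), beside 84.4% of the other bright genes and 19.7% of all genes above background. Null and heterozygous were both compared with the same 2 wild-type arrays, and these comparisons are not independent.

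The large and the small subunit were described separately. In null against all controls, the 26 large-subunit genes had a median of -0.10 with 14 on the lower side and 6 lower at an unadjusted p under 0.05, and the 22 small-subunit genes had a median of -0.13 with 14 lower and 2 at that p. Of all genes 45.9% were on the lower side and 7.98% lower at that p, and of those above background 63.4% and 16%. Against wild type the medians were -0.03 and 0.04. Both subunits had 0 genes past the threshold in every comparison, and the difference between subunits was not tested.

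Of the paralogues, genes similar to a ribosomal protein gene that are often made in particular tissues, 5 had a probe set of their own. Rpl22l1 and Rps27l are given above. In the brightest probe set, their parents showed smaller differences or none that could be read. Rpl22 differed by -0.12 ± 0.14 SE from all controls (limma adjusted p = 0.751), with an interval from -0.45 to 0.20. All 3 of its probe sets above background were lower, from -0.61 to -0.12. Rps27 was near background on all arrays (2.40 to 3.53). Rpl7l1, a relative of Rpl7, scattered within the groups (6.55 and 8.40, then 6.48, 7.68 and 7.24, then 6.96, 5.78 and 7.78). Rpl39 (2.75 to 3.12) and Rpl39l, a form known from testis, were near background, and Rpl39l exceeded it clearly on 1 array, null 3 at 3.85. Of the 5 paralogues 0 passed in any comparison.

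The 13 measured genes in which variants cause Diamond-Blackfan anaemia had median differences of 0.04 for null minus wild type, -0.07 for null minus heterozygous, 0.09 for heterozygous minus wild type and -0.03 for null minus all controls, with 0 past the threshold in each. At an unadjusted p under 0.05, 4 of the 13 were lower than all controls, Rpl8, Rpl11, Rps19 and Rps24, and 0 higher, where 7.98% of all genes and 16% of those above background were lower and 5.51% and 5.91% higher. Rpl5 has no probe set of its own here.

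Where a gene had more than 1 probe set, these did not always give the same sign. Of 21 genes with at least 2 probe sets above background, 11 had the same sign in all of them in null against all controls (9 lower, 2 higher), and in 3 the probe sets differed by over 1 log2 unit. In Rpl35 the 3 brightest differed by 0.02, 0.08 and 0.0048, while the 2 dimmer ones gave -0.32 ± 0.11 and -1.19 ± 0.25 SE, both with all null arrays below all controls. The lowest of these read 11.09 and 11.52, then 11.59, 11.70 and 11.42, then 10.47, 10.66 and 9.67 (limma adjusted p = 0.109). In Rps10 the brightest gave 0.30 ± 0.17 and another -0.84 ± 0.15, the latter reading 9.49 and 9.71, then 9.93, 9.87 and 9.80, then 9.11, 8.99 and 8.66 (limma adjusted p = 0.0742). Rpl37a was the third such gene. Which part of the transcript each probe set reads is not given in the files used here. The 110 probe sets that name a ribosomal protein gene together with other genes were outside the member list, and 0 of them passed in any of the 4 comparisons (smallest adjusted p 0.0531, against all controls). At an unadjusted p under 0.05, 2 of the 110 were higher and 16 lower than all controls, and 94 of the 110 were above background on all arrays. With each gene counted by its brightest probe set, 5.51% and 7.98% of all genes and 5.91% and 16% of those above background were. The shared probe sets cannot be assigned to a gene.

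The machinery that makes and uses ribosomes was described through lists of other genes. Their counts are read against the share of all genes that passed, which was 0.517% for null minus wild type, 0.77% for null minus heterozygous and 0.934% for null minus all controls (0.708%, 1.2% and 1.69% of those above background). Of 14 genes in a list of elongation factors, related genes and transcripts known for a 5′ C and T tract, 0 passed in any comparison. The tract was not checked in these genes. The list's medians of -0.16 against wild type and -0.25 against heterozygous turned to 0.06 and 0.15 after median scaling. The 2 largest differences from all controls were those of Btf3 (-0.68 ± 0.33 SE) and Nap1l1 (-0.66 ± 0.15, limma adjusted p = 0.142). Fau, whose product is cut into ubiquitin-like and ribosomal parts, differed by -0.19 ± 0.12. Among 16 genes of growth control such as Myc family members and mTOR pathway genes, 0 passed, and Eif4ebp2 (-1.42 ± 0.64) and Rps6ka3 (-1.27 ± 0.95) differed most from all controls. The list's median there was 0.12, and 0.45 after median scaling.

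Of 60 ribosome biogenesis factors, 1 fell against all controls, Nop10, a protein of the particles that modify ribosomal RNA (-1.47 ± 0.21 SE, limma adjusted p = 0.0306). It read 10.26 and 10.04, then 9.59, 9.73 and 10.08, then 8.62, 8.72 and 8.06. It passed in 6 of 18 alternatives. It missed the threshold under quantile, cyclic loess and median scaling, in the mean of probe sets, with array weights and without any 1 array except null 2 (adjusted p up to 0.144), with the difference between -1.67 and -1.15. The list's median was -0.20 for null minus wild type, -0.51 for null minus heterozygous and -0.35 against all controls. These became 0.02, -0.09 and -0.02 after cyclic loess, and 0.02, -0.11 and -0.02 after median scaling. After quantile normalization they were -0.10, -0.31 and -0.18. Nop16 (-2.67 ± 0.64) and Rrp1b (-1.97 ± 0.32, limma adjusted p = 0.0517) had the largest differences.

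Of 15 genes of RNA polymerase I and ribosomal DNA transcription, 2 fell against all controls. Ubtf, the factor that binds ribosomal DNA promoters, read 8.83 and 8.93, then 8.90 to 9.23 in heterozygous, then 8.03, 8.05 and 8.04 (-0.94 ± 0.12 SE, limma adjusted p = 0.017). Polr1d, a subunit shared by RNA polymerases I and III, differed by -1.21 ± 0.18 (0.036). Both missed the threshold under the 3 other normalizations, with a filter at the median level, in the mean of probe sets, with array weights and with a trended robust fit. Ubtf also missed it without heterozygous 1, heterozygous 3 or null 1, so that 8 of 18 alternatives kept it (adjusted p up to 0.470, difference between -0.97 and -0.60). Polr1d also missed it without wild-type 2, any heterozygous array, null 1 or null 3, so that 5 of 18 kept it (adjusted p up to 0.640, difference between -1.31 and -0.21). Ubtf fell against heterozygous too (-1.001 ± 0.13, 0.0351), in 3 of 19 alternatives, and not without any 1 array except null 2 (adjusted p up to 0.430). Taf1d, a subunit of the selectivity factor, rose against wild type (1.54 ± 0.16, 0.0211), passed in 8 of 19 alternatives, missed the threshold without any wild-type or heterozygous array, and had the other sign (-0.32, adjusted p = 0.870) in the mean of its probe sets. The list's median was -0.73 against wild type and -0.57 against all controls, and -0.51 and -0.25 after median scaling.

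Of 77 mitochondrial ribosomal proteins, which form the separate ribosome of the mitochondrion, 1 fell against all controls, Mrpl36 (-1.53 ± 0.25 SE, limma adjusted p = 0.0486). It passed in 5 of 18 alternatives and missed the threshold under the 3 other normalizations, with a pseudocount of 32, array weights or a trended robust fit, and without any 1 array except wild-type 1 (adjusted p up to 0.162, difference between -1.70 and -0.54). Their median was -0.15 against wild type and -0.48 against heterozygous, and 0.07 and -0.08 after median scaling. Of 10 genes of ribosomal protein surveillance through p53, 1 fell, Ccng1, a p53 target, against all controls (-1.03 ± 0.16 SE, limma adjusted p = 0.0399). It passed in 3 of 18 alternatives and missed the threshold under the 3 other normalizations, both filters, the mean of probe sets, array weights, the trended robust fit and without any 1 array except heterozygous 3 (adjusted p up to 0.679, difference between -1.11 and -0.24). Cdkn1a, another p53 target, differed from wild type by 1.28 ± 0.77 (limma adjusted p = 0.773). Of 16 genes of ribosome quality control and eIF2alpha kinases, 1 rose in all 3 comparisons with null, Eif2ak2. It encodes PKR, a kinase that is activated by RNA duplexes, blocks the start of translation and is itself induced by interferon. It read 6.91 and 6.28, then 6.78, 6.29 and 6.31, then 9.45, 9.65 and 8.67, and all null arrays were above all controls (2.75 ± 0.26 SE, limma adjusted p = 0.00424). That call held in each of 18 alternatives. Against wild type (2.66 ± 0.35, 0.0475) it passed in 8 of 19 alternatives and missed the threshold without any 1 array except null 3, with a pseudocount of 32, array weights, a trended robust fit or the 2 groups alone (up to 0.352). Against heterozygous (2.80 ± 0.31, 0.0221) it passed in 15 of 19 and missed the threshold without heterozygous 1, 2 or 3 or null 1 (up to 0.109).

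**Figure D5:**
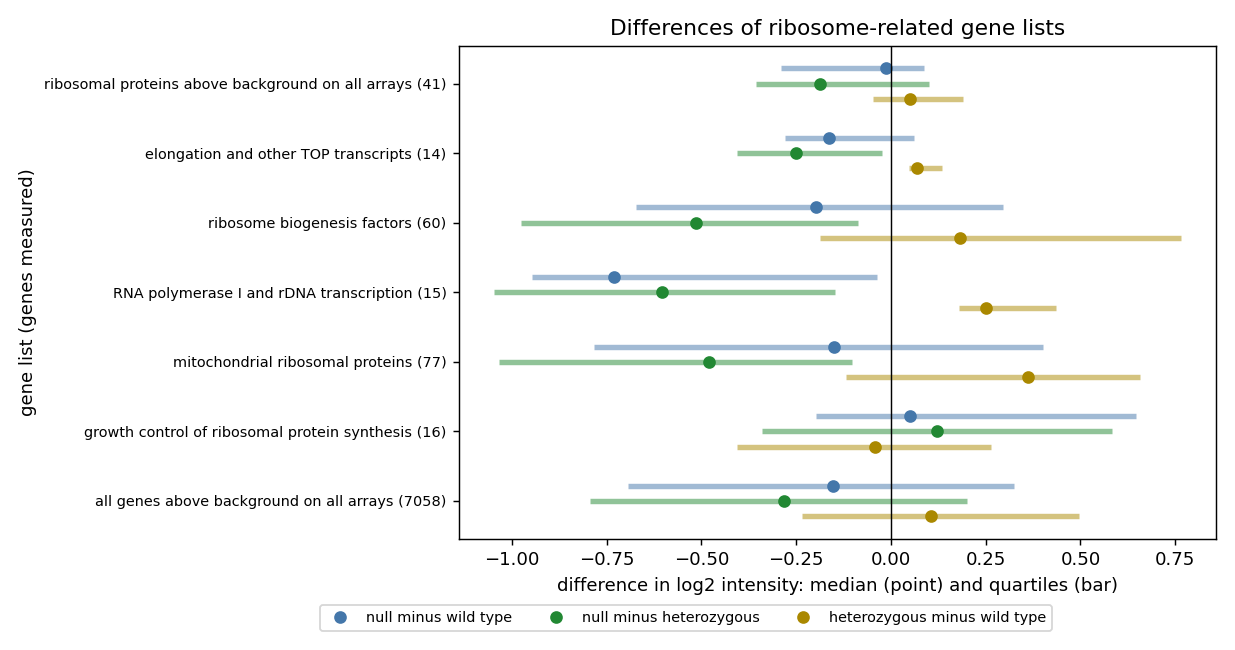
Median (point) and quartiles (bar) of the difference in log2 intensity over the genes of each list, for 3 comparisons, with the number of genes measured. The bars of the ribosomal proteins and of the elongation list are narrower than those of all genes above background, and every list shares the arrays of the comparison.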

How the data were processed

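Messenger RNA of 8 samples was extracted with a Qiagen kit, amplified and biotin-labelled with a Nugen kit and hybridised to arrays of 45101 probe sets, per the labels. The deposited intensity values are linear, and RMA is named in the submitters' processing notes. Its version is not given in the sources used here. Log2 was taken. Upper quartiles of log2 intensity were 4.35 and 4.20 in wild type, 4.51, 4.41 and 4.43 in heterozygous, then 3.98, 4.40 and 4.01 in null. The arrays thus did not have identical distributions, and how they were scaled to each other before deposit is unclear. Of the probe sets, 64 controls were left out and 45037 tested; 34945 name 1 gene, 932 several and 9160 none, and 34741 were matched to RefSeq.

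Fits used limma 3.58.1 on R 4.3.3 (lmFit, eBayes): a 3-group model, and a 2-group model for null against all 5 controls. Tests were two-sided, Benjamini-Hochberg adjustment ran over all 45037 probe sets, and errors are limma standard errors. The method was tested on simulated data. Replicates were numbered in order of deposit and pair nothing. Named genes were, in each comparison, the 5 highest and 5 lowest, those at an unadjusted p under 0.05, the paralogues with their parents, and the 3 brightest and 3 dimmest, with Rps19 and Rpl11, and in each other list the called genes or else the 2 largest differences. Rpl38's window was chosen after its values were seen. Other members are named only in counts of 11 or fewer, after their values were seen. Members, lists and tests were chosen with earlier results of these data known. Alternatives were other normalizations, filters, probe set rules, weights and fits, a pseudocount of 32, and leaving out each array. Columns of samples left unused: 0.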

Additional observations from a re-analysis of the deposited data

Results flagged for a closer look

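Among the 5 control arrays, 3 of 39 named genes had a value whose gap to its nearest neighbour was over 0.71 of the range, which chance gives in about 1 of 20 groups. Rpl37a was high on wild-type 2 (12.42, the other controls 11.67 to 11.82). Rps9 was low on the same array (11.41, the others 11.90 to 12.04). Rpsa was low on heterozygous 3 (13.31, the others 13.37 to 13.39).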

How the results depend on the processing

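The count of ribosomal protein genes past the threshold stayed at 0 in 20 of 20 alternatives against wild type, 19 of 20 against heterozygous, 20 of 20 for heterozygous against wild type and 16 of 19 against all controls. With 1 array left out it ranged from 0 to 1 against heterozygous and against all controls. The genes were Rps27l without null 1, Rpl14 without null 2 (in both comparisons) and Rpl7 without null 3. The smallest adjusted p over the alternatives was 0.0729, 0.0356, 0.44 and 0.0127 in the same order of comparisons.

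The median difference depended on the scaling between arrays. It moved from 0.01 to 0.18 (cyclic loess) and 0.23 (median scaling) against wild type, from -0.12 to 0.051 and 0.28 against heterozygous, and from -0.11 to 0.0079 (quantile), 0.094 and 0.22 against all controls. For heterozygous against wild type it moved from 0.07 to -0.11 (median scaling). The cause was not tested.

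Some signs turned. With median scaling, null minus heterozygous became 0.044 for Rpl8 and 0.020 for Rps24. In the mean of probe sets it became -0.055 for Rps18, null minus all controls became -0.16 for Rps10, and null minus wild type became -0.32 for Taf1d, which then missed the threshold. With 1 array left out, null minus wild type ranged from -1.72 to 0.31 for Rps25, from -0.56 to 0.95 for Rpl12 and from -0.017 to 0.52 for Rpl39l. Null minus heterozygous ranged from -0.25 to 1.14 and null minus all controls from -0.38 to 1.01 for Rpl12. Heterozygous minus wild type ranged from -1.27 to 0.58 for Rpl7l1, from -0.97 to 0.34 for Rpl12 and from -0.66 to 0.068 for Rpl37a.

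No paired analysis was possible because the labels give no replicate numbers. With 2 wild-type arrays and variable null arrays, intervals are wide for Rpl14, Rpl12 and Rpl7l1, and 7 members with values near background limit what dim probe sets can show. The deposited files hold 1 value per probe set, so the probe level was not analysed here. Restricting the count to the 41 members above background, chosen after seeing the data, left it at 0.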
